A study of Mus musculus with 17 samples.

Results

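The keratin gene family was followed across sorted mouse medullary thymic epithelial cells. Its members were the genes whose probe set carried, as its single symbol in the platform annotation, Krt followed by a number and at most 1 letter, and the keratin-associated Krtap genes were left out. This gave 52 genes of the 19752 named by the array, each read by 1 probe set, of which 28 encode type I (acidic) and 24 type II (basic to neutral) keratins. RNA was hybridised to whole-transcript Affymetrix Mouse Gene 1.0 ST arrays, 1 array per sample, and the 17 arrays fall into 6 groups. Perinates (labelled 3 days, while the series text gives birth to day 3) contributed 3 arrays of Aire KO GFP+ cells, 3 of WT GFP+ cells and 2 of WT GFP- cells. Adults of 5 weeks contributed 3 arrays of Aire KO GFP+ cells, 3 of WT GFP+ cells and 3 of WT GFP- cells. All mice had a C57BL/6 background and carried Igrp-GFP (Adig), a reporter driven by Aire, so that GFP marks cells that transcribe the reporter in KO as well as in WT mice, and the sex is labelled as mixed. Every sample was sorted as CD45-, Ly51- and high in MHC class II, and KO GFP- cells were not analysed here. The labels do not say whether arrays of 1 group came from separate mice, pools or litters, so the p-values measure the spread between these arrays, part of which may be technical.

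Keratins are the intermediate filament proteins of epithelia. A filament needs a type I and a type II keratin as partners, and each kind of epithelium uses its own pairs, such as Krt8 with Krt18 in simple epithelia, Krt5 with Krt14 in the basal layer of stratified epithelia and Krt1 with Krt10 in the layers above it. In the thymus, Krt5 and Krt14 are used as markers of the medulla, Krt8 and Krt18 are found in cortical and medullary epithelium, and Krt10 is known from differentiated medullary cells. Aire is a transcriptional regulator through which medullary epithelial cells express many genes otherwise restricted to other tissues.

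Mouse keratin genes lie in a pair of clusters, 27 of the 52 on chromosome 11 (type I) and 25 on chromosome 15 (type II, with Krt18). Promoters of 4 members of the chromosome 15 cluster are shown because the KO comparison separates them: Krt77, Krt71 and Krt76 fell in KO cells at both ages, while Krt8 was not called. Each sequence is the 250 bases before the RefSeq gene start in GRCm38.p6, written 5' to 3' on the minus strand, which is the coding strand of each. Krt77 is at chr15:101869706-101869955, Krt71 at chr15:101743098-101743347, Krt76 at chr15:101892921-101893170 and Krt8 at chr15:102004343-102004592. Capitals mark the letters TATAAA, the core of the TATA box that places transcription starts in many tissue-restricted genes.
Krt77: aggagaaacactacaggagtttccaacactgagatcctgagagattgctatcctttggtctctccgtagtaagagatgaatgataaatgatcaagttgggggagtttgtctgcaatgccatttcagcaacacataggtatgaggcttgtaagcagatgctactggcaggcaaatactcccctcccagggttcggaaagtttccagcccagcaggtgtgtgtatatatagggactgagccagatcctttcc
Krt71: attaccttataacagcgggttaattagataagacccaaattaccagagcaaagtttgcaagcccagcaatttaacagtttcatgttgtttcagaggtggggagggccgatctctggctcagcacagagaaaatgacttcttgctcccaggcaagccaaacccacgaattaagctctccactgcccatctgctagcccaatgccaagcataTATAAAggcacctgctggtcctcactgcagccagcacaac
Krt76: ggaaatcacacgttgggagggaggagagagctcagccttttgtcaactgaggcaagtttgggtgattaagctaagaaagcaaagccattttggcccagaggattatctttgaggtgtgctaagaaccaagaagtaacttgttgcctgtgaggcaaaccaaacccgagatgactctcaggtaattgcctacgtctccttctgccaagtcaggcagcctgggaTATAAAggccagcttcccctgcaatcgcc
Krt8: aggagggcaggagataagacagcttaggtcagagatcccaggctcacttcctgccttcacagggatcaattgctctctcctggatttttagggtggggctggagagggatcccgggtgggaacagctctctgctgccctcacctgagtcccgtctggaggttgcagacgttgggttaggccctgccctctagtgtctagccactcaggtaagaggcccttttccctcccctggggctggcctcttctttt
The capitals start 40 bases before the gene start in Krt71 and 29 bases before it in Krt76, and the letters TATAAA are absent from the windows of Krt77 and Krt8. Only these exact letters were searched, so other forms of a TATA box were not counted. The Krt77 window holds the run tatatata near its end. RefSeq promoter entries were at hand for 36 of the 52 keratins (37 entries, since Krt13 has 2). Searched on both strands, TATAAA was found in 17 of the 37 keratin windows (45.9%), against 12.4% of the 32851 mouse windows of the same length. It was in 9 of 18 windows (50%) of keratins that fell in KO cells at both ages and in 1 of 10 windows (10%) of the other tested keratins. The rest of the 17 were in windows of keratins too dim to be tested in the KO comparison. Among the other tested keratins, Krt15, Krt16, Krt17, Krt222, Krt6a, Krt6b and Krt80 had no promoter entry. A link between these letters and the fall in KO cells was not tested. GGGCGG, the core of the GC box, was in 5.41% of the keratin windows, against 32.7% of all windows, and TGANTCA, the AP-1 motif, was in 5.41%, against 6.75%. These counts describe letters in a window and are no evidence of a bound factor.

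Values are the deposited array intensities, on a linear scale, and levels of different probe sets are not compared. A gene was tested if its intensity passed the 40th percentile of the array on at least 2 arrays, a value of 96.2 to 112 units, and 39 of the 52 keratins (19 type I and 20 type II) did so among 13842 genes tested. Of these, 13 passed on all 17 arrays. The 13 keratins that were not tested were Krt2, Krt74, Krt26, Krt27 and Krt28 of differentiating epidermis and inner root sheath, Krt31, Krt32, Krt34, Krt35, Krt39, Krt40 and Krt86 of hair, and Krt88. Differences are log2 differences with their standard errors (SE), from limma's moderated test in 1 model of the 6 group means, and a gene was called at a Benjamini-Hochberg adjusted p under 0.05 over the 13842 genes. Of the 39 tested keratins, 36 were called in at least 1 of the 9 comparisons, and Krt7, Krt8 and Krt33b were called in none. The matching share of all tested genes was not counted, and the comparison of adult GFP+ with GFP- cells alone called 44.9% of them.

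Array medians ran from 144.5 to 157.1, and 7 of 7 medullary epithelial markers lay above the filter value on every array. Aire itself, whose deleted part in the KO allele is not given in the sources used here, averaged 5272 ± 1047 in KO and 4773 ± 629 in WT GFP+ perinates, and 4927 ± 284 in KO and 5097 ± 971 in WT GFP+ adults (SD, n = 3 each), so its probe set cannot check the genotype labels. Aire averaged 310.5 ± 57.3 in GFP- perinates (n = 2) and 690.0 ± 221 in GFP- adults (n = 3). Against the label of mixed sex, the Y-linked gene Uty read 19.2 and 16.1 on perinate KO arrays 2 and 3 and between 168.9 and 366.2 elsewhere. Keratin results of perinate KO cells are also given without these arrays. Leaving them out keeps 1 perinate KO array, which is then assumed to vary like the other groups. Results of genes other than keratins are given with all arrays only.

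In adult GFP+ cells, 24 of the 39 tested keratins fell in KO mice and 1 rose, against 10.8% of all tested genes lower and 9.06% higher. The median log2 difference was -0.65 over the tested keratins and 0.06 over all tested genes. In perinate GFP+ cells, 26 keratins fell in KO mice and 1 rose, against 13% and 13.5% of all tested genes, with a median of -0.66 over the keratins and 0.09 over all genes. The 22 keratins that fell at both ages were of epidermal, mucosal, inner root sheath, hair and simple epithelial kinds, by 1.25- to 6.02-fold in adults and 1.21- to 6.11-fold in perinates. For each of the 22, the KO arrays lay below the WT arrays at both ages, without overlap. The 22 were picked by their calls on these same arrays, which favours such separation, so it adds no support. The shares of all tested genes that fell at both ages, or did so without overlap, were not counted. In these bulk samples, fewer cells that express a keratin and less of its RNA per cell cannot be told apart.

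Some keratins passed the filter only through the groups in which they were high, so the counts were repeated on other bases. Among the 12454 genes whose mean over all arrays passed the filter, 21 of 33 keratins fell in KO mice at each age, against 9.23% of the genes in adults and 10.8% in perinates. Without a filter, 26 of the 52 keratins fell in adults and 31 in perinates, against 11% and 14.3% of 19752 genes. The added keratins were Krt39 and Krt86 in adults, and Krt2, Krt28, Krt39, Krt74 and Krt86 in perinates. Of the 22, 10 had all KO arrays below the filter value in adults and 10 in perinates, where intensity differences are measured near the lower end of the scale. With each array centred on its median, 23 keratins fell in adults and 24 in perinates, and the share of called genes that were higher in KO cells, over all tested genes, was 61.2% in adults and 66.7% in perinates, against 45.6% and 50.8% without the centring. Without perinate KO arrays 2 and 3, the rise of Krt17 in perinates was no longer called. The falls of Krt10, Krt12, Krt19, Krt25, Krt36, Krt42, Krt79 and Krt82 were lost too. In that fit, 15% of the called genes were higher in KO cells, over all tested genes, against 50.8% with all arrays. Falls thus prevailed among all called genes there, and the direction of the remaining keratin calls does not set keratins apart.

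Some marker sums of other cell types did not overlap between KO and WT GFP+ cells. These were the fibroblast sum in adults, the dendritic cell and macrophage sum in perinates, and the melanocyte sum at both ages. The summed intensity of the 6 fibroblast markers was 4948 to 5243 in KO and 4107 to 5091 in WT GFP+ perinates, and 4187 to 4501 in KO and 2596 to 2945 in WT GFP+ adults, with 5 of 6 markers above the filter value on every perinate KO array and 4 of 6 in the other 3 groups. The summed level of the 4 melanocyte markers, a check for hair bulb cells, was 255.1 to 277.9 in KO and 296.1 to 318.4 in WT GFP+ perinates, and 260.2 to 289.4 in KO and 290.5 to 316.0 in WT GFP+ adults. Tyr and Dct, which define that cell type, were below the filter value on every array of these 4 groups. The 8 dendritic cell and macrophage markers summed to 902 to 1023 in KO and 1092 to 1226 in WT GFP+ perinates, and to 969 to 1344 in KO and 1314 to 1513 in WT GFP+ adults, with Itgax and Siglech below the filter value on every array. The sums of the medullary, cortical, thymocyte and endothelial lists overlapped between KO and WT GFP+ cells at both ages. The part of these markers in the keratin differences was not tested.

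**Figure D1:**
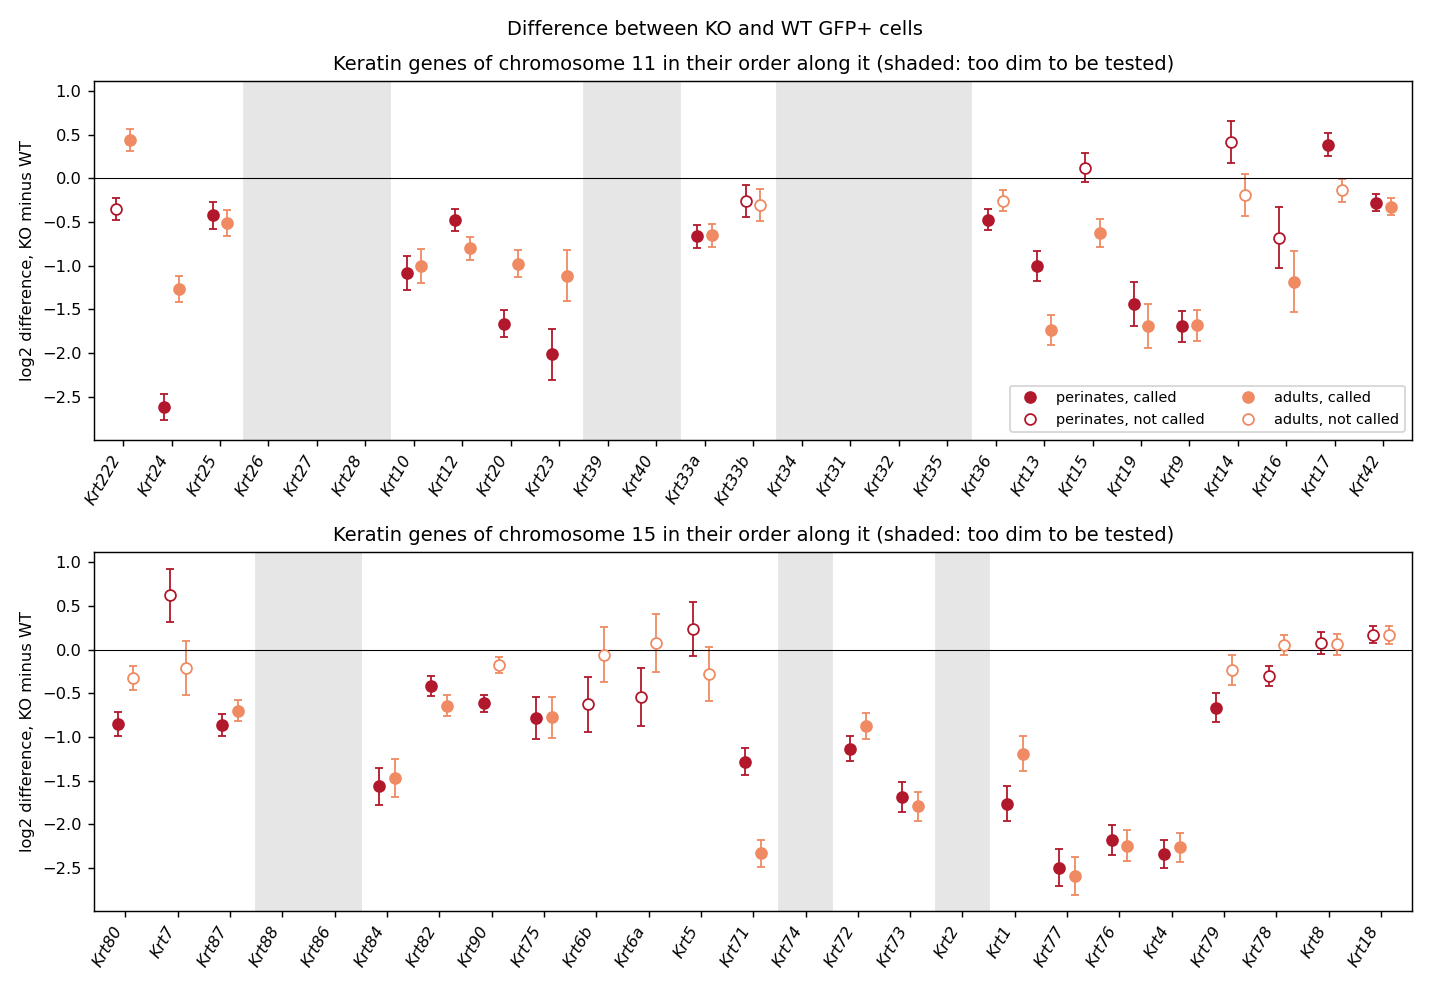
Log2 difference in intensity between KO and WT GFP+ cells (y axis) for each keratin in its order along chromosome 11 (top) and chromosome 15 (bottom), in perinates (red) and adults (orange). Points are the fitted differences with SE bars, filled where called and open where not, grey bands hold the 13 keratins too dim to be tested, and the runs of filled points below 0 (Krt24 to Krt33a and Krt71 to Krt4) are seen at both ages.

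Among the keratins of simple epithelia, Krt19, Krt20 and Krt23 fell in KO cells at both ages, and 4 of the 7 were not called in adults. Krt20, a type I keratin of intestinal epithelium and urothelium, had 111, 89.5 and 96.3 in perinate KO cells, against 358, 316 and 269 in perinate WT cells. In adults it had 317, 328 and 298 in KO cells, against 613, 602 and 637 in WT cells. The KO arrays lay below the WT arrays at both ages, with log2 differences of -1.66 ± 0.15 (adjusted p = 4.2e-07) in perinates and -0.97 ± 0.15 (adjusted p = 0.000148) in adults. Krt23, a type I keratin, had 69.3, 71.5 and 64.7 in perinate KO cells, against 274, 278 and 276 in perinate WT cells, a difference of -2.01 ± 0.29 (adjusted p = 7.73e-05). In adults Krt23 had 153, 135 and 130.5 in KO cells, against 303, 307 and 295 in WT cells, a difference of -1.12 ± 0.29 (adjusted p = 0.0116). Krt19, the small type I keratin of ductal and glandular epithelia, differed by -1.43 ± 0.25 in perinates (adjusted p = 0.000486) and by -1.69 ± 0.25 in adults (adjusted p = 9.36e-05). Its perinate KO arrays were at 149, 94.3 and 82.8, and without arrays 2 and 3 the difference was -0.93 with an adjusted p of 0.102. Krt80 fell by 0.85 in perinates and was not called in adults.

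The Krt8 and Krt18 pair, the most general keratins of simple epithelia, was bright on every array. Krt8 averaged 6308 ± 595 in KO and 5990.5 ± 496 in WT GFP+ perinates, and 7255 ± 726 in KO and 6946 ± 334 in WT GFP+ adults (SD, n = 3 each). The difference was 0.07 ± 0.12 in perinates (95% interval -0.18 to 0.33) and 0.06 ± 0.12 in adults (95% interval -0.20 to 0.32), and neither was called. Krt18 differed by 0.17 ± 0.10 in perinates (95% interval -0.04 to 0.38) and by 0.17 ± 0.10 in adults (95% interval -0.04 to 0.38), again without a call. Krt7, a type II keratin of ducts and glands, had a wide spread in WT GFP+ perinates (418, 1136 and 1035) and was not called in either comparison.

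The basal pair Krt5 and Krt14 was not called at either age. Krt5 had 4012, 3761 and 2933 in perinate KO cells, against 1809.9, 4928 and 3015 in perinate WT cells, and 1744, 1854 and 904 in adult KO cells, against 1646, 1502 and 2125 in adult WT cells. The groups overlapped at both ages, and the 95% interval of the log2 difference ran from -0.41 to 0.89 in perinates and from -0.94 to 0.37 in adults. Krt14 differed by 0.42 ± 0.24 in perinates (95% interval -0.10 to 0.93) and by -0.19 ± 0.24 in adults (95% interval -0.71 to 0.33). Krt15, also of basal cells, fell in adult KO cells to 105 ± 5.54, against 163 ± 25.1 in adult WT cells, a difference of -0.63 ± 0.16 (adjusted p = 0.0118), and this call was lost without adult WT GFP+ array 6 (adjusted p = 0.0606).

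Of the 6 tested keratins of differentiated epidermis, Krt1, Krt9, Krt10 and Krt77 fell in KO cells at both ages. Krt77, a type II keratin of differentiating skin, had 109, 101 and 91.7 in perinate KO cells, against 499.7, 860.2 and 421 in perinate WT cells. In adults it had 149, 149.8 and 114 in KO cells, against 778, 867 and 821 in WT cells. Every KO array was low, and the difference was -2.49 ± 0.21 (5.63-fold lower, adjusted p = 1.76e-07) in perinates and -2.59 ± 0.21 (6.02-fold lower, adjusted p = 7.26e-08) in adults. Krt9, a type I keratin of palm and sole epidermis, had 73.1, 76.7 and 77.4 in perinate KO cells, against 202, 309 and 235 in perinate WT cells, and its log2 differences were -1.69 ± 0.18 in perinates and -1.68 ± 0.18 in adults (adjusted p = 2.28e-06 and adjusted p = 1.96e-06).

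Krt1 and Krt10, which partner each other above the basal layer, fell together. Krt1 had 45.6, 46.7 and 49.4 in perinate KO cells, against 173, 193 and 123 in perinate WT cells, and 67.2, 67.3 and 47.2 in adult KO cells, against 131, 134 and 144 in adult WT cells. Krt10 had 121, 114 and 100.2 in perinate KO cells, against 213, 253 and 241 in perinate WT cells, and 242, 242 and 137 in adult KO cells, against 379, 341 and 498 in adult WT cells. No KO array reached a WT array of its age for either gene. The log2 differences of Krt1 were -1.76 ± 0.20 (adjusted p = 6.33e-06) in perinates and -1.19 ± 0.20 (adjusted p = 0.00037) in adults. Those of Krt10 were -1.08 ± 0.19 (adjusted p = 0.000622) and -1.0 ± 0.19 (adjusted p = 0.00119), and without perinate KO arrays 2 and 3 the perinate value of Krt10 was -0.96 with an adjusted p of 0.0544. Krt79, a keratin of the upper hair follicle, fell in perinate KO cells by 0.66 (adjusted p = 0.00832) and was not called in adults.

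Among the 9 tested keratins of mucosa and stressed epithelia, Krt4, Krt12, Krt13, Krt24 and Krt76 fell in KO cells at both ages. Krt4, which partners Krt13 in the squamous lining of the mouth and oesophagus, had 36.8, 44.3 and 52.1 in perinate KO cells, against 244, 269 and 168 in perinate WT cells, and 54.4, 53.6 and 58.1 in adult KO cells, against 236, 306 and 259 in adult WT cells. Krt76, of the hard palate and other oral mucosa, had 45.1, 41.7 and 38.9 in perinate KO cells, against 195, 204 and 169.8 in perinate WT cells, and 68.3, 66.3 and 52.0 in adult KO cells, against 278, 327 and 275 in adult WT cells. Both probe sets were below the filter value on every KO array and well above it on every WT GFP+ array. Krt4 fell by 2.34 in perinates and 2.26 in adults (adjusted p = 1.54e-08 and adjusted p = 1.58e-08), and Krt76 fell by 2.18 and 2.24 (adjusted p = 8.56e-08 and adjusted p = 3.98e-08). Krt13 differed by -1.01 ± 0.17 in perinates and -1.74 ± 0.17 in adults (adjusted p = 0.000414 and adjusted p = 8.28e-07). Krt12, the type I keratin of corneal epithelium, fell less, by 0.48 in perinates and 0.80 in adults (adjusted p = 0.0117 and adjusted p = 0.000199).

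Krt16, which is induced in wounded and thickened epidermis, fell in adult KO cells to 128, 126 and 115, against 233, 208 and 448 in adult WT cells. WT array 8 stood high, and the call (-1.18 ± 0.35, adjusted p = 0.0231) was lost without it (adjusted p = 0.133) and without adult KO array 2 or 3. Krt17, which is likewise induced by stress, had 5352, 5786 and 5836 in perinate KO cells, against 3646, 4702 and 4719 in perinate WT cells, and was the single keratin that rose in perinates (0.39 ± 0.13, adjusted p = 0.0425). The rise missed the threshold under 11 of 26 other settings. Krt14, Krt16 and Krt17 are close in sequence, as are Krt6a and Krt6b and Krt33a and Krt33b, so part of the signal of each could come from its relatives.

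The 5 tested keratins of the inner root sheath, the layer that moulds the growing hair, fell in KO cells at both ages (Krt25, Krt71, Krt72, Krt73 and Krt75, which belongs to the companion layer), and the other 4 on the array were too dim to be tested. Krt71 had 90.3, 132 and 131 in perinate KO cells, against 291, 341 and 227 in perinate WT cells, and 69.2, 71.0 and 77.4 in adult KO cells, against 376, 349.7 and 367 in adult WT cells. Its KO arrays were higher in perinates than in adults, while its WT arrays were lower. Krt73 had 70.1, 61.8 and 68.6 in perinate KO cells, against 279, 203 and 175 in perinate WT cells, and fell by 1.69 in perinates and 1.79 in adults (adjusted p = 1.21e-06 and adjusted p = 3.99e-07). Krt72 fell by 1.14 and 0.87, Krt75 by 0.78 at both ages, and Krt25 by 0.42 in perinates and 0.51 in adults. The perinate call of Krt25 (adjusted p = 0.0461) was lost under 14 of 25 other settings, that of Krt75 without perinate WT array 5 or perinate KO array 1. In adults, the call of Krt25 (adjusted p = 0.0226) was lost when any 1 of 4 arrays was left out, and that of Krt75 (adjusted p = 0.0277) when any 1 of 5 was.

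Of the 13 hair shaft keratins on the array, 6 were tested, and Krt33a, Krt82, Krt84 and Krt87 fell in KO cells at both ages. Krt84, a type II hair keratin, had 66.0, 60.7 and 71.7 in perinate KO cells, against 146, 265 and 191 in perinate WT cells, and 92.4, 84.5 and 75.9 in adult KO cells, against 227, 205 and 271 in adult WT cells. These groups did not overlap, and the differences were -1.56 ± 0.21 (adjusted p = 3.88e-05) in perinates and -1.47 ± 0.21 (adjusted p = 7e-05) in adults. Krt87, also a type II hair keratin, differed by -0.86 ± 0.12 in perinates and -0.70 ± 0.12 in adults. Krt36 fell by 0.47 in perinates and was not called in adults. Of the 3 tested keratins with no role listed, Krt42 fell at both ages (calls lost under 14 of 25 other settings in perinates, median centring and quantile normalization among them, and 6 of 25 in adults), Krt90 fell in perinates, and Krt222 rose in adults (0.44 ± 0.13, adjusted p = 0.021), a call lost without any 1 of 4 arrays, WT 7 and 8 and KO 1 and 2 (adjusted p up to 0.103).

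Along chromosome 15, the 7 tested genes Krt71, Krt72, Krt73, Krt1, Krt77, Krt76 and Krt4 lie in a row (with the untested Krt74 and Krt2 among them), and all 7 fell in KO cells at both ages. The tested neighbours before them (Krt6b, Krt6a and Krt5) and after them (Krt79, Krt78, Krt8 and Krt18) did not fall at both ages. On chromosome 11, a row of 7 tested genes from Krt24 to Krt33a (Krt24, Krt25, Krt10, Krt12, Krt20, Krt23 and Krt33a) also fell at both ages. The untested Krt26, Krt27, Krt28, Krt39 and Krt40 lie among them. The rows were noticed in the order of the genes and carry no test.

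The size of the KO effect differed between perinates and adults for 3 keratins, 2 of them lower and 1 higher in perinates, against 0.484% and 0.722% of all tested genes. Krt24, a type I keratin, had 109.9, 81.9 and 75.0 in perinate KO cells, against 549, 549 and 511 in perinate WT cells. In adults it had 181, 165 and 169 in KO cells, against 383, 472 and 390.1 in WT cells. Its KO arrays lay below its WT arrays at both ages, by more in perinates (-2.61 ± 0.15, against -1.27 ± 0.15 in adults), and the difference of the effects was -1.34 ± 0.21 (adjusted p = 0.0062). For Krt71 the effect was smaller in perinates, a difference of 1.04 ± 0.22 (adjusted p = 0.0292), and for Krt222 it was -0.79 ± 0.18 (adjusted p = 0.0453). Leaving out single arrays, 8 arrays ended the call of Krt71 and 11 that of Krt222. Without perinate KO arrays 2 and 3, none of these 3 passed, and Krt24 then had a difference of -1.02 with an adjusted p of 0.0905. For Krt1, Krt10, Krt77, Krt19 and Krt20 the differences of the effects were -0.57 ± 0.29, -0.08 ± 0.27, 0.10 ± 0.30, 0.26 ± 0.35 and -0.69 ± 0.21, and none was called. Those of Krt8, Krt18, Krt5 and Krt14 were 0.01 ± 0.17, 0.00 ± 0.14, 0.52 ± 0.44 and 0.61 ± 0.35, also without a call.

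**Figure D2:**
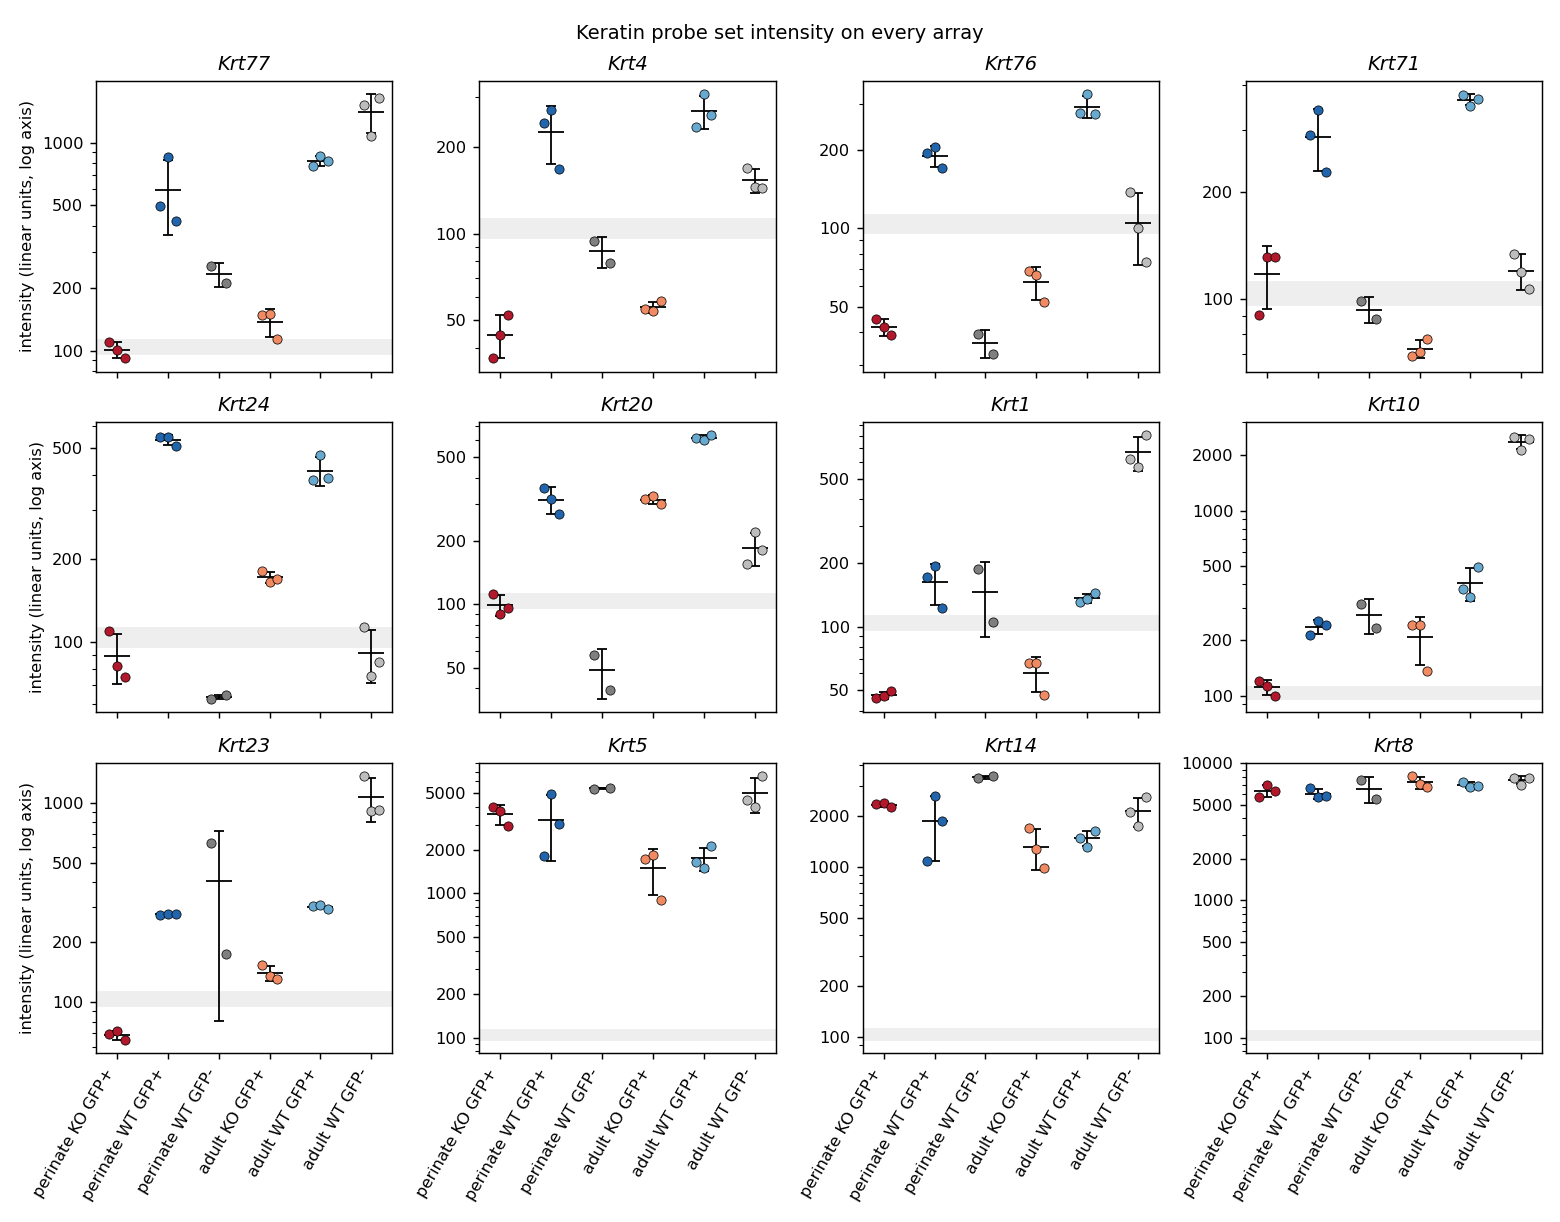
Intensity (linear units on a log axis, whose range differs between panels) of 12 keratins on every array, by group. Points are arrays, bars are means with SD (n = 3, and n = 2 in perinate WT GFP-), and the grey band is the range of the filter value over the 17 arrays. Krt77, Krt4, Krt76 and Krt24 are lower in each KO group than in WT GFP+ cells of the same age. Krt24 is also low in both GFP- groups, and Krt76 in perinate GFP- cells. Krt1 and Krt10 are highest in adult GFP- cells, and Krt8 is bright on every array.

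Filament partners of the keratins were followed as a list of 16 genes, of which 15 were tested. In KO cells, 4 of the 15 fell in adults and 3 in perinates, against 10.8% and 13% of all tested genes, and none rose, against 9.06% and 13.5%. Jup (plakoglobin), which ties keratin filaments to desmosomes, had 1397 ± 86.3 in KO and 1874 ± 126 in WT cells in perinates, a difference of -0.42 ± 0.12 (adjusted p = 0.0175). In adults it had 1059 ± 198 in KO and 1883 ± 81.7 in WT cells, a difference of -0.85 ± 0.12 (adjusted p = 7e-05). Tchh (trichohyalin), which binds keratin filaments in the inner root sheath, had 93.3 ± 12.4 in KO and 182 ± 10.5 in WT cells in perinates, a difference of -0.97 ± 0.14 (adjusted p = 5.77e-05), and differed by -0.55 ± 0.14 in adults (adjusted p = 0.00782). Tgm3, a transglutaminase that crosslinks hair and epidermal proteins, fell in perinates (-0.88 ± 0.12, adjusted p = 5.38e-05), and the desmosomal anchor Dsp (-0.35 ± 0.11) and Fam83h (-0.44 ± 0.13) fell in adults.

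Of 16 genes known as regulators of keratin genes, 14 were tested, of which 3 fell in adult KO cells (10.8% of all tested genes) and 5 fell and 1 rose in perinate KO cells (13% and 13.5% of all tested genes). Dlx3, a homeodomain factor of hair and epidermal differentiation, had 126 ± 16.6 in KO and 208 ± 11.9 in WT cells in perinates, a difference of -0.73 ± 0.11 (adjusted p = 9.81e-05), and differed by -0.44 ± 0.11 in adults (adjusted p = 0.00741). The gut and liver factors Cdx2 and Hnf4a fell at both ages, Cdx2 by 0.83 and Hnf4a by 0.75 in perinates, and by 0.36 and 0.44 in adults. Grhl1 (-0.63 ± 0.14) and Gata3 (-0.53 ± 0.19) fell in perinates, where Trp63, the master regulator of stratified epithelium, rose (0.50 ± 0.15, adjusted p = 0.0177).

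In adult WT mice, GFP+ cells set against GFP- cells had 10 keratins higher and 15 lower, against 24.7% of all tested genes higher and 20.1% lower. The count of higher keratins was near the share over all tested genes, and that of lower keratins was above it. The median log2 difference of the keratins was -0.16, against 0.02 over all genes. Higher in GFP+ cells were Krt24, Krt20, Krt71, Krt76, Krt9, Krt73, Krt4, Krt25, Krt13 and Krt87. The KO comparisons share the WT GFP+ arrays with this one. Lower in GFP+ cells were Krt10, Krt1, Krt23, Krt6b, Krt6a, Krt5, Krt80, Krt16, Krt19, Krt79, Krt84, Krt77, Krt78, Krt18 and Krt36. Adult GFP+ and GFP- arrays with the same number deviated together, so a fit with the number as a block was made on these 2 groups alone. That fit called 9 keratins higher and 19 lower, against 28.6% and 24% of all tested genes, and the fit of these 2 groups without the block called 8 higher and 17 lower, against 24.4% and 19.6%. Both fits of these 2 groups called Krt7 and Krt14 lower (adjusted p = 0.00085 and 0.00253 with the block, 0.0389 and 0.0224 without), and neither called Krt87 (adjusted p = 0.05 and 0.0675). Krt17 and Krt222 were called lower with the block alone (adjusted p = 0.032 and 0.0452), and Krt13, which the fit of these 2 groups lost (adjusted p = 0.0672), was called higher with the block (adjusted p = 0.0141).

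Krt24 in adult WT cells had 383, 472 and 390.1 in GFP+ cells, against 113, 75.6 and 84.6 in GFP- cells, a difference of 2.20 ± 0.15 (adjusted p = 1.76e-08). Krt20 had 613, 602 and 637 in GFP+ cells, against 155, 220.3 and 181 in GFP- cells, a difference of 1.75 ± 0.15 (adjusted p = 1.69e-07). Every GFP+ array lay above every GFP- array for both genes. Krt71, Krt76, Krt9, Krt73, Krt4 and Krt25 were higher by 1.60, 1.53, 1.45, 0.99, 0.80 and 0.60 on the log2 scale, all with an adjusted p of at most 0.0039. Krt13 (0.52 ± 0.17) and Krt87 (0.38 ± 0.12) were higher by less, and both calls were lost without any 1 of several arrays (4 for Krt13 and 3 for Krt87). In the opposite direction, Krt10 had 379, 341 and 498 in GFP+ cells, against 2509, 2126 and 2431 in GFP- cells, and was 5.86-fold lower (-2.55 ± 0.19, adjusted p = 4.66e-08). Its partner Krt1 had 131, 134 and 144 in GFP+ cells, against 625, 572 and 808 in GFP- cells, and was 4.85-fold lower (-2.28 ± 0.20, adjusted p = 2.42e-07). The GFP- arrays of both stood far above every GFP+ array. Krt23, Krt6b, Krt6a, Krt5, Krt80 and Krt16 were lower, with log2 differences of -1.79, -1.75, -1.68, -1.49, -1.39 and -1.19 (adjusted p of at most 0.0105). The call of Krt16 was lost without GFP- array 6 or GFP+ array 7 (adjusted p up to 0.0682).

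Krt77 joined the lower group in adults (-0.76 ± 0.21, adjusted p = 0.00757), with 778, 867 and 821 in GFP+ cells, against 1526, 1079.6 and 1648 in GFP- cells. Krt19 and Krt18 were lower too (-1.13 ± 0.25 and -0.52 ± 0.10, adjusted p = 0.00152 and adjusted p = 0.000462). Krt8 differed by -0.12 ± 0.12 (95% interval -0.38 to 0.13) and was not called, and Krt14 by -0.52 ± 0.24 (adjusted p = 0.0945 in the model of all 6 groups).

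In perinate WT mice, 15 keratins were higher and 6 lower in GFP+ cells, against 23% and 20.5% of all tested genes, and the median was 0.20 over the keratins and 0.00 over all genes. The 10 that were higher in adult GFP+ cells were all higher here, with Krt222, Krt84, Krt77, Krt72 and Krt42. Krt24 had 549, 549 and 511 in GFP+ cells, against 62.7 and 64.3 in GFP- cells, and was 8.45-fold higher (3.08 ± 0.17, adjusted p = 7.72e-10). Krt20 had 358, 316 and 269 in GFP+ cells, against 57.7 and 39.3 in GFP- cells, and was 6.56-fold higher (2.71 ± 0.17, adjusted p = 3.01e-09). Both GFP- arrays were below the filter value for both genes. Krt76, Krt222, Krt9, Krt71, Krt84 and Krt4 were higher by 2.39, 2.36, 1.83, 1.60, 1.37 and 1.37 (adjusted p of at most 0.000174).

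Lower in perinate GFP+ cells were Krt6a, Krt6b, Krt14, Krt19, Krt18 and Krt15. Krt14 had 1083, 2629 and 1853 in GFP+ cells, against 3327 and 3414 in GFP- cells, a difference of -0.95 ± 0.27 (adjusted p = 0.00936), and the call was lost without GFP- array 2 (adjusted p = 0.051). Krt5 had 1809.9, 4928 and 3015 in GFP+ cells, against 5300.1 and 5415 in GFP- cells, and missed the threshold (-0.84 ± 0.35, adjusted p = 0.0599). Krt6a had 73.8, 115 and 64.3 in GFP+ cells, against 738 and 213 in GFP- cells (-2.28 ± 0.37, adjusted p = 9.45e-05). Its 2 GFP- arrays differed widely, as did those of Krt6b, Krt19 and Krt23, and the calls of Krt6b, Krt19 and Krt15 were lost without GFP- array 1 (adjusted p = 0.402, 0.487 and 0.145), that of Krt6b also without GFP+ array 6 and that of Krt19 without GFP+ array 5 or 7. Krt18 differed by -0.65 ± 0.11 (adjusted p = 0.000152) and Krt8 by -0.11 ± 0.14 (95% interval -0.40 to 0.18), and Krt1 (0.19 ± 0.23) and Krt10 (-0.21 ± 0.22) were not called.

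The GFP- groups differed in cell markers. Aire, which drives the reporter, is among the medullary markers, so the sort itself sets part of the medullary gap between GFP- and GFP+ cells. The summed intensity of the 6 cortical epithelial markers was 14528 to 15213 in perinate GFP- cells and 7243 to 8645 in adult GFP- cells, against 6226 to 9958 in the WT GFP+ groups, and that of the 7 medullary markers was 13299 to 13814 in perinate GFP- cells and 21438 to 23144 in adult GFP- cells, against 27895 to 31855 in the WT GFP+ groups. Psmb11, the proteasome subunit that defines cortical cells, was at 348.1 ± 49.5 in perinate GFP- cells (n = 2) and 93.3 ± 7.43 in adult GFP- cells (n = 3). The part of these markers in the keratin differences that involve GFP- cells was not tested.

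The GFP effect differed between the ages for 12 keratins, all with a higher value in perinates, against 10.7% of all tested genes higher and 9.28% lower. The 12 were Krt222, Krt1, Krt10, Krt84, Krt77, Krt80, Krt23, Krt79, Krt20, Krt72, Krt24 and Krt76. Krt1 and Krt10 were lower in adult GFP+ cells and not called in perinates, and the difference of their effects was 2.47 ± 0.30 (adjusted p = 3.81e-05) and 2.34 ± 0.29 (adjusted p = 4.03e-05). Krt77 and Krt84 were called in opposite directions, higher in perinate and lower in adult GFP+ cells, with differences of 2.05 ± 0.32 (adjusted p = 0.000274) and 2.21 ± 0.32 (adjusted p = 0.000147). Krt222 had 528, 500.1 and 627 in perinate GFP+ cells, against 116 and 99.0 in perinate GFP- cells, and 387, 358 and 380.3 in adult GFP+ cells, against 412, 463 and 489 in adult GFP- cells. The perinate GFP- arrays were the low ones, and the difference of the effects was 2.63 ± 0.19 (adjusted p = 2.43e-07). Krt80, Krt23 and Krt79 differed by 1.64, 1.52 and 1.32, and the call of Krt23 was lost without adult GFP- array 6 or perinate GFP- array 2. Krt20, Krt24 and Krt76 were higher in GFP+ cells at both ages, by more in perinates (0.96, 0.88 and 0.86 more), and the call of Krt76 was lost under 8 of 26 other settings. Krt8, Krt18, Krt19, Krt5 and Krt14 had differences of 0.01 ± 0.18, -0.13 ± 0.15, 0.30 ± 0.38, 0.65 ± 0.46 and -0.43 ± 0.37, none of them called.

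**Figure D3:**
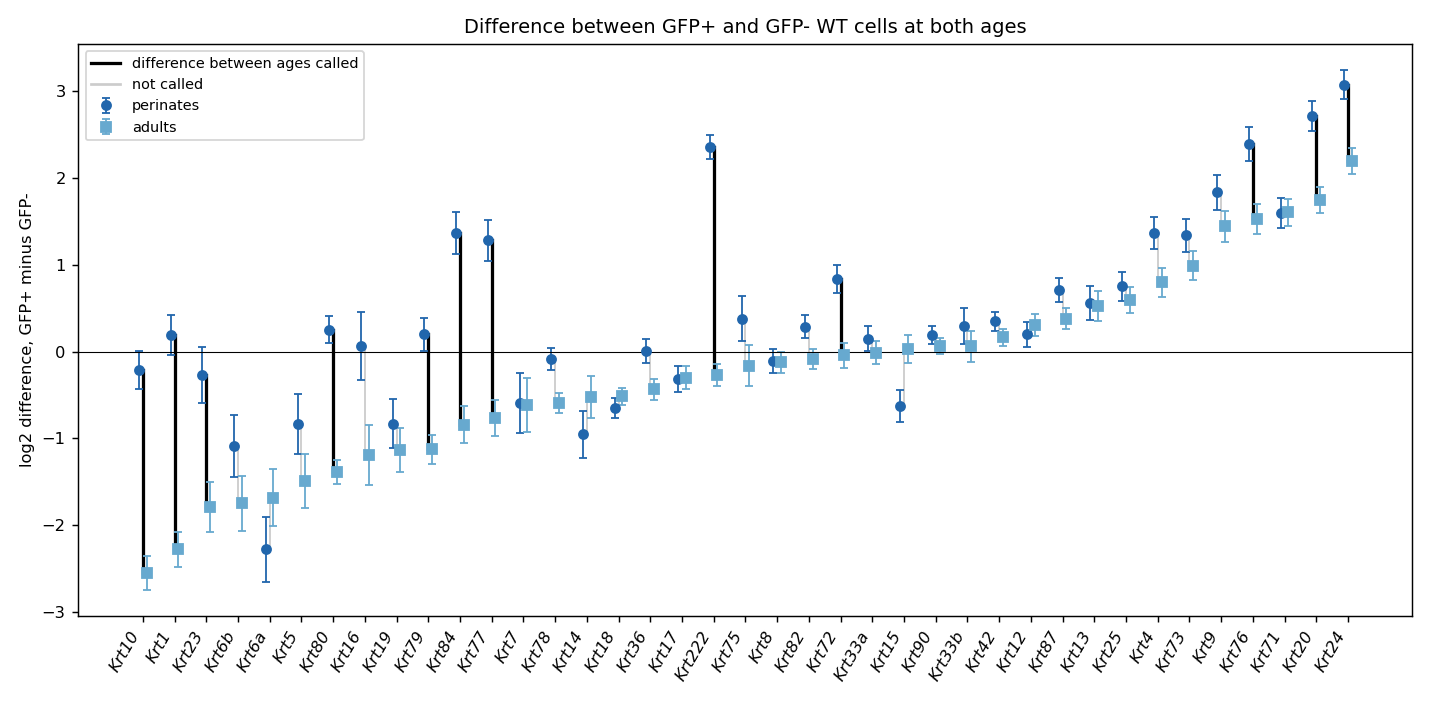
Log2 difference between GFP+ and GFP- WT cells (y axis) for the 39 tested keratins, ordered by the adult value, in perinates (dark circles) and adults (light squares) with SE bars. Black lines join the ages of the 12 keratins whose GFP effect differed between them, from Krt10 and Krt1 at the left, which are low in adults alone, to Krt20 and Krt24 at the right, which are high at both ages.

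Among the filament partners, 11 of 15 were lower and 1 higher in adult GFP+ cells, against 20.1% and 24.7% of all tested genes, and 7 were lower and 1 higher in perinate GFP+ cells, against 20.5% and 23%. Dsp had 2104 ± 151 in GFP+ and 4361 ± 349.8 in GFP- cells in perinates and 2258 ± 130.3 in GFP+ and 4929 ± 143 in GFP- cells in adults, and Eppk1 (epiplakin), which binds keratin filaments, had 264 ± 2.29 in GFP+ and 708 ± 42.0 in GFP- cells in perinates and 300.1 ± 37.3 in GFP+ and 1002 ± 139.9 in GFP- cells in adults. The differences were -1.05 ± 0.12 and -1.13 ± 0.11 for Dsp, and -1.42 ± 0.14 and -1.74 ± 0.13 for Eppk1, with adjusted p of at most 1.71e-06. Of the 14 regulators tested, 6 were lower and 1 (Foxn1, the master factor of thymic epithelium) was higher in adult GFP+ cells, and 3 were lower and 5 higher in perinate GFP+ cells, against the same shares of all tested genes. Trp63 was lower at both ages (-1.58 ± 0.16 in perinates and -0.96 ± 0.15 in adults, with adjusted p = 7.41e-07 and 5.54e-05), as was Klf5 (-1.04 ± 0.34 and -1.58 ± 0.30).

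Of the 3 comparisons of age, that in WT GFP- cells had the most calls, among keratins as among all tested genes. There, 2 keratins were higher and 19 lower in perinates than in adults, against 22.2% and 24.2% of all tested genes, with a median of -0.50 over the keratins and 0.02 over all genes. Krt10 had 315 and 234 in perinate GFP- cells, against 2509, 2126 and 2431 in adult GFP- cells, and was 8.65-fold lower (-3.11 ± 0.22, adjusted p = 1.26e-08). Krt77 had 256 and 211 in perinate GFP- cells, against 1526, 1079.6 and 1648 in adult GFP- cells (-2.59 ± 0.24, adjusted p = 2.27e-07), and Krt1 had 186 and 106, against 625, 572 and 808 (-2.24 ± 0.23, adjusted p = 6.59e-07). These epidermal keratins were high on all 3 adult GFP- arrays and on neither perinate one. Krt84, Krt222, Krt16, Krt20 and Krt23 were lower, with log2 differences of -2.46, -2.08, -1.97, -1.95 and -1.65 (adjusted p of at most 0.000552). Krt79, Krt76, Krt9, Krt80, Krt4, Krt75, Krt13, Krt72, Krt82, Krt24 and Krt42 were also lower. Krt6a (1.28 ± 0.37) and Krt15 (0.47 ± 0.18) were higher in perinates, and both calls were lost without perinate GFP- array 1 (0.348 and 0.349 as adjusted p), that of Krt15 under 11 of 25 other settings in all. Krt14 (0.68 ± 0.27, adjusted p = 0.0514), Krt5 (0.14 ± 0.35), Krt19 (-0.59 ± 0.28), Krt8 (-0.23 ± 0.14) and Krt18 (-0.13 ± 0.11) were not called. Among the 14 regulators, 1 (Trp63, 0.96 ± 0.16) was higher and 6 were lower in perinate GFP- cells, and among the 15 filament partners 1 was higher and 4 were lower (22.2% of all tested genes higher and 24.2% lower), Tgm3 with -2.44 ± 0.14 (adjusted p = 1.08e-09).

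In WT GFP+ cells, 3 keratins were higher and 5 lower in perinates than in adults, against 8.52% and 13.6% of all tested genes. Krt20 was lower in perinates (-0.98 ± 0.15, adjusted p = 0.000301), as were Krt9 (-0.82 ± 0.18), Krt10 (-0.77 ± 0.19), Krt13 (-0.71 ± 0.17) and Krt76 (-0.63 ± 0.17), while Krt80 (0.63 ± 0.14), Krt222 (0.55 ± 0.13) and Krt90 (0.29 ± 0.09) were higher. The adjusted p of these 8 ran up to 0.0325. With quantile normalization 5 were higher and 6 lower, and the share of called genes that were higher in perinates, over all tested genes, was 49.4%, against 38.4% without it. Krt77 (-0.54 ± 0.21), Krt1 (0.23 ± 0.20), Krt5 (0.79 ± 0.31), Krt14 (0.25 ± 0.24), Krt19 (-0.28 ± 0.25), Krt8 (-0.22 ± 0.12) and Krt18 (-0.27 ± 0.10) were not called.

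In KO GFP+ cells, 4 keratins were higher and 7 lower in perinates than in adults, against 13.4% and 12.7% of all tested genes. Krt5 had 4012, 3761 and 2933 in perinate KO cells, against 1744, 1854 and 904 in adult KO cells, and its partner Krt14 had 2347, 2369 and 2257, against 1691, 1275 and 985. Both basal keratins were higher on every perinate KO array (1.31 ± 0.31 and 0.85 ± 0.24, adjusted p = 0.00541 and adjusted p = 0.0168), with Krt15 (0.56 ± 0.16) and Krt71 (0.68 ± 0.15). Krt20 was lower (-1.67 ± 0.15, adjusted p = 2.24e-06), as were Krt23 (-1.02 ± 0.29), Krt24 (-0.97 ± 0.15), Krt10 (-0.85 ± 0.19), Krt9 (-0.83 ± 0.18), Krt79 (-0.75 ± 0.17) and Krt76 (-0.56 ± 0.17). Without perinate KO arrays 2 and 3, which leaves 1 perinate KO array, the calls of Krt14, Krt71, Krt10, Krt23, Krt79 and Krt76 were lost. Of the 14 regulators, 2 (Trp63 and Tfap2c) were higher in perinate than in adult KO cells and none was lower, against 13.4% and 12.7% of all tested genes. The part of these regulators in the keratin differences was not tested. Krt77 (-0.44 ± 0.21), Krt1 (-0.34 ± 0.20), Krt19 (-0.03 ± 0.25), Krt8 (-0.20 ± 0.12) and Krt18 (-0.26 ± 0.10) were not called.

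**Figure D4:**
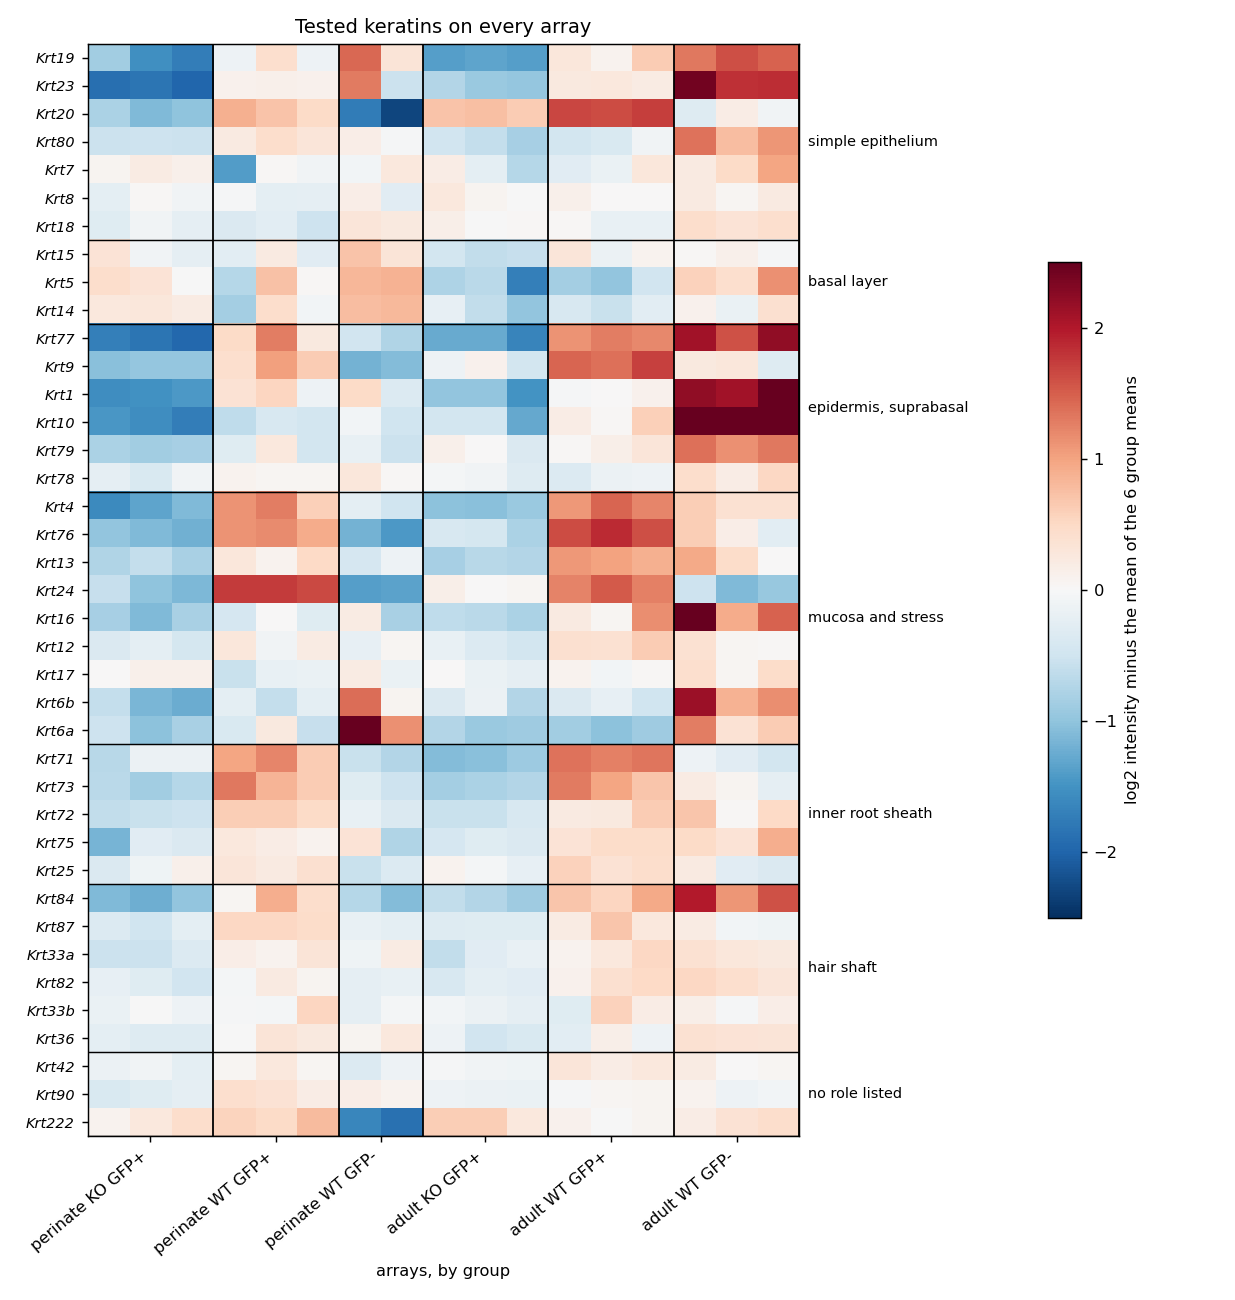
Log2 intensity of the 39 tested keratins on the 17 arrays, each relative to the mean of the 6 group means of its own probe set (colour scale from -2.5 to 2.5, beyond which the colour stays the same), with keratins grouped by the epithelium they are known from. The KO arrays are blue over most epidermal, mucosal and inner root sheath rows, Krt1 and Krt10 are red in adult GFP- cells, and Krt8 and Krt18 are pale throughout.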

How the data were processed

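Per the submitters' processing notes, the authors ran RMA in Affymetrix Power Tools, and what they deposited is 1 linear intensity for each probe set and array. RMA corrects background, normalizes between arrays and summarises probes. Which arrays were normalized as 1 set, and with which versions, is not given in the sources used here. The table holds 24922 probe sets, and symbols came from the platform annotation, checked against RefSeq (GRCm38.p6), where all 52 keratins were found and 0 symbols changed.

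Intensities were taken to log2 with no pseudocount. A gene was represented by its probe set with the highest mean and tested if 2 or more arrays had it over their own 40th percentile (13842 of 19752 genes). All 9 comparisons came from 1 model of 6 group means over 17 arrays (lmFit, contrasts.fit and eBayes of limma 3.58.1, under R 4.3.3). The p-values are two-sided, from limma's moderated test, with Benjamini-Hochberg adjustment over the genes tested. The model had 11 residual and 5.52 prior degrees of freedom, and the number of arrays limits the precision (median SE 0.13 between groups of 3). The steps were tested on simulated data. Levels are means ± SD of linear intensities, while folds come from mean log2 values. Groups and array numbers came from the sample titles.

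Roles of the keratins, partners and regulators are textbook lists. The members, lists and tests were chosen with earlier results of these data known. In each comparison the called keratins were named, with values for up to 8 a direction, and Krt1, Krt5, Krt8, Krt10, Krt14, Krt18, Krt19, Krt20 and Krt77 were named throughout. Adult GFP+ and GFP- arrays share the numbers 6, 7 and 8, and the deviations of same-numbered arrays from their group means correlated over genes (r = 0.503, 0.443 and 0.188), so a fit of these 2 groups with the number as a block was run too. Alternatives were other scalings and filters, other variance settings, the mean over probe sets, the groups compared alone, and leaving out arrays.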

Additional observations from a re-analysis of the deposited data

Results flagged for a closer look

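The keratins below are listed because their GFP or KO effect differed between the ages in a test of the difference itself (limma, adjusted over 13842 genes). For the GFP effect, perinate minus adult, the log2 differences were 2.63 for Krt222, 2.47 for Krt1, 2.34 for Krt10, 2.21 for Krt84, 2.05 for Krt77, 1.64 for Krt80, 1.52 for Krt23, 1.32 for Krt79, 0.96 for Krt20, 0.88 for Krt72, 0.88 for Krt24 and 0.86 for Krt76. Their adjusted p ran from 2.43e-07 for Krt222 to 0.029 for Krt76. These 12 differences rest on 2 perinate GFP- arrays, whose cortical epithelial marker sum was 14528 to 15213, against 7243 to 8645 in adult GFP- cells, and the part of those markers was not tested.

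For the KO effect, perinate minus adult, the differences were -1.34 for Krt24 (adjusted p = 0.0062), 1.04 for Krt71 (adjusted p = 0.0292) and -0.79 for Krt222 (adjusted p = 0.0453). None of the 3 was called without perinate KO arrays 2 and 3, the arrays with low Uty, where 1 perinate KO array remains.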

How the results depend on the processing

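Of the 198 keratin differences recomputed under other settings, the 153 that were called kept their sign throughout, and 18 of the 45 that were not called changed sign in at least 1 setting, in 46 of 1177 values, none of them called. Of all these values, 4926 kept their side of the threshold, 193 lost the call and 37 gained one. The count of keratins called, KO against WT in perinates, was 17 with the filter at the 60th percentile, where fewer genes were tested. For the difference of the KO effects between ages, the count was 3, and it was 6 with array weights, 5 with only the groups compared and 0 without perinate KO arrays 2 and 3 (the cause was not tested), and for perinates against adults in KO cells it was 5 without those arrays, where fewer arrays entered. Leaving out 1 array at a time, the counts called ran from 22 to 27 (KO, perinates), 20 to 25 (KO, adults), 1 to 4 (difference of the KO effects), 18 to 22 (GFP, perinates), 22 to 27 (GFP, adults), 10 to 15 (difference of the GFP effects), and, for age, 6 to 11 in GFP+ WT cells, 18 to 23 in GFP- WT cells and 9 to 12 in KO cells. Some calls were lost when a single array was left out, with the number of such arrays in brackets: Krt17 (7), Krt75 (2), Krt12 (2), Krt42 (10), Krt82 (2) and Krt25 (9) for KO in perinates, Krt222 (4), Krt16 (3), Krt75 (5), Krt15 (1), Krt42 (4) and Krt25 (4) for KO in adults, Krt14 (1), Krt19 (3), Krt15 (1), Krt42 (2), Krt6b (2) and Krt13 (3) for GFP in perinates, Krt16 (2), Krt87 (3) and Krt13 (4) for GFP in adults, Krt222 (11) and Krt71 (8) for the difference of the KO effects, Krt23 (2), Krt20 (1) and Krt76 (7) for that of the GFP effects, and, for age, Krt10 (1), Krt76 (2) and Krt90 (5) in GFP+ WT cells, Krt75 (2), Krt24 (3), Krt15 (9), Krt6a (1), Krt42 (2) and Krt13 (1) in GFP- WT cells, and Krt14 (1), Krt23 (2), Krt15 (3) and Krt76 (4) in KO cells. For GFP in adults, 28 keratins were called with the array number as a replicate block in a fit of the 2 groups alone (52.6% of all tested genes), 25 in that fit without the block (44%) and 25 in the model of all groups (44.9%). Adult and perinate KO arrays also share the numbers 1, 2 and 3. Their deviations had r = 0.0486, 0.039 and 0.0589 for same-numbered arrays, against -0.0979 to 0.0496 for the other pairs. Whether same-numbered KO arrays share a source was not tested. For age in KO cells, the replicate block in a fit of the 2 groups gave 13 calls, against 14 in that fit without the block and 11 in the model of all groups. Precision is limited by how many arrays each group has: the median SE on the log2 scale was 0.184 for the difference of the KO effects and 0.145 for GFP in perinates, with its 2 GFP- arrays.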
